A study of Mus musculus with 19 samples.

Results

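The 10 genes followed here are used as markers of the choroid plexus epithelium: Ttr, Folr1, Kl, Clic6, Aqp1, Kcnj13, Enpp2, Sostdc1, Slc4a5 and Otx2. They were measured in the hippocampal RNA of 19 female mice. They were taken by name, as 10 of the 35842 genes in the table, and all 10 had enough counts to be tested among 18529 genes. The mice were heterozygous offspring of APPswe/PS1dE9 mice (APP/PS1, C57Bl6/J background), which carry transgenes with mutations of familial Alzheimer's disease, crossed with the TRE-A2A strain, in which a Tet-responsive element drives the cDNA of the mouse adenosine A2A receptor. There were 4 APP/PS1 A2A, 5 APP/PS1, 5 A2A and 5 WT mice. Every mouse, WT included, received the AAV2/5-CBA-tTA vector in CA1 of both sides at 3 months, so that the tTA transactivator was present in all groups and switched on the receptor only where the TRE-A2A allele was carried, and hippocampi were frozen at 6 months. The receptor is thus driven only in cells the vector reached, the vector being one that favours neurons.

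The choroid plexus is a fold of vascular tissue in the brain ventricles, covered by an epithelium that secretes the cerebrospinal fluid. This epithelium borders the hippocampus along the choroid fissure, and it is the main site of transthyretin synthesis in the brain. It moves salts, water, folate and hormones between blood and cerebrospinal fluid, and releases proteins such as klotho and autotaxin. In bulk RNA, fewer cells of a type and less RNA per cell cannot be told apart.

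In these libraries the 10 genes varied together, and far more from mouse to mouse than between genotypes. Ttr spanned 27.5 to 9443 CPM (the counts of a gene relative to its library's total, scaled by TMM), a ratio of 343, and every genotype held mice both below and above the median of 1931 CPM. No gene of the group was called in any genotype comparison, and the 9 others all followed Ttr from mouse to mouse. Their fitted slopes on Ttr were ordered from Slc4a5 and Kcnj13, nearly in proportion, to Kl, the least steep. Differences between the slopes were not tested.

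The promoters at the 2 ends of this order are shown as a description. Whether promoter sequence bears on how steeply a gene followed Ttr was not tested. RefSeq (GRCm38.p6) gave a promoter window, 250 bases before to 50 bases after a transcript start, for 5 of the 10 genes, and Otx2 had several starts, which makes 8 windows. The window of Slc4a5 is chr6:83237125-83237424 on the plus strand, inside the gene as the deposited table places it (chr6:83219828-83304945). That of Kcnj13, chr1:87394680-87394979 on the minus strand, spans the start of its gene (chr1:87386363-87394729), and so does that of Kl, chr5:150952357-150952656 on the plus strand (gene at chr5:150952607-150993817). Each is written 5′ to 3′ with CpG dinucleotides in capitals.
Slc4a5: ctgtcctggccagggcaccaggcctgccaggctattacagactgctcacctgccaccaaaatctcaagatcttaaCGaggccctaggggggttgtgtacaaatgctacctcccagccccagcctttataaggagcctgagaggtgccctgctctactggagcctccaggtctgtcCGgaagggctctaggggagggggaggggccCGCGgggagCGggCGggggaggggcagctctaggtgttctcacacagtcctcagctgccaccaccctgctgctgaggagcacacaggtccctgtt
Kcnj13: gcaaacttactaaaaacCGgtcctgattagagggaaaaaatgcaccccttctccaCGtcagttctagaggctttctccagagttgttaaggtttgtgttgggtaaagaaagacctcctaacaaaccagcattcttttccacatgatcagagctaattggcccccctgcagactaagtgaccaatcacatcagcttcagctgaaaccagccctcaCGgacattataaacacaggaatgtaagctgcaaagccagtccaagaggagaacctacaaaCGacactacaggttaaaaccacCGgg
Kl: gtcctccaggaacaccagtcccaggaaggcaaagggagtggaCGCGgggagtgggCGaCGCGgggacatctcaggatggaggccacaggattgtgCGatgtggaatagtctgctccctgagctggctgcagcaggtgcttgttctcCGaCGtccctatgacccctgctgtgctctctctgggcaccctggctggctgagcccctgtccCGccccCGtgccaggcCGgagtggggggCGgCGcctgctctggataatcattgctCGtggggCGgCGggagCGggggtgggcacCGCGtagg
Kl had 19 CpG and 67.3% GC, Slc4a5 6 CpG and 62.7% GC, and Kcnj13 5 CpG and 46.0% GC, beside a median of 7 CpG and 52.7% GC over the 32817 windows of the table. The letters TAATCC, a motif of OTX homeodomain proteins, were looked for on both strands (GGATTA on the other). They were found in 1 of the 8 windows, that of the Otx2 start at chr14:48665060-48665359, and 7.06% of all windows hold them.

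The libraries held 21305902 to 53717373 counts, with a median of 35891080. The labels were checked on App, which had 3282 to 4499 CPM in APP/PS1 A2A and 3430 to 4473 CPM in APP/PS1 mice, against 1381 to 1746 CPM in A2A and 1467 to 1920 CPM in WT mice. Prnp, whose promoter drives the APP/PS1 transgenes, also separated these groups, with log2 fold changes of 1.49 for APP/PS1 over WT and 1.53 for APP/PS1 A2A over A2A. Adora2a, whose native transcript is what the annotation counts, did not separate the groups: it had 1.27 to 10.3 CPM (median 1.74) in APP/PS1 A2A and 1.15 to 1.83 CPM (median 1.57) in APP/PS1 mice, and 0.865 to 9.35 CPM (median 2.18) in A2A and 1.09 to 1.54 CPM (median 1.42) in WT mice. The 10 choroid plexus genes together took 0.0220 to 1.48% of a library's counts. Of the 190 values of these genes, 5 rested on under 20 counts, the fewest being the 8 counts of Slc4a5 in APP/PS1 A2A mouse DDBM152 (0.219 CPM of the unscaled total, exact 95% binomial interval 0.0946 to 0.432).

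Ttr encodes transthyretin, which carries thyroxine and, in a complex, retinol. Values are given in the order of the mouse names, which are DDBM152, DDBM153, DDBM154 and DDBM155 for APP/PS1 A2A, DDBM176, DDBM178, DDBM179, DDBM181 and DDBM182 for APP/PS1, DDBM160, DDBM161, DDBM162, DDBM164 and DDBM166 for A2A, and DDBM168, DDBM169, DDBM170, DDBM172 and DDBM173 for WT. Ttr had 27.5, 2023, 3587 and 889.9 CPM in APP/PS1 A2A mice, 174, 4869, 2372, 9443 and 629 CPM in APP/PS1 mice, 1931, 84.0, 742, 6559 and 128 CPM in A2A mice, and 183, 6227, 1006, 5202 and 7628 CPM in WT mice. Each group thus held a mouse at or below 183 CPM and a mouse at or above 3587 CPM, and the 4 groups overlapped. The means were 1632 ± 1538 (SD, n = 4) in APP/PS1 A2A, 3498 ± 3800 (n = 5) in APP/PS1, 1889 ± 2715 (n = 5) in A2A and 4049 ± 3282 (n = 5) in WT. Ordered by log2 level, the widest gap between neighbouring mice was 1.78, between the 5 lowest mice and the 14 others, which each came from all 4 genotypes. Whether these are separate clusters was not tested. Ttr did not follow the depth of the library (Pearson r = -0.096, permutation p = 0.695, Spearman rho = -0.093, permutation p = 0.705, n = 19 mice, r = -0.12 without the 2 mice farthest from the median depth).

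**Figure D1:**
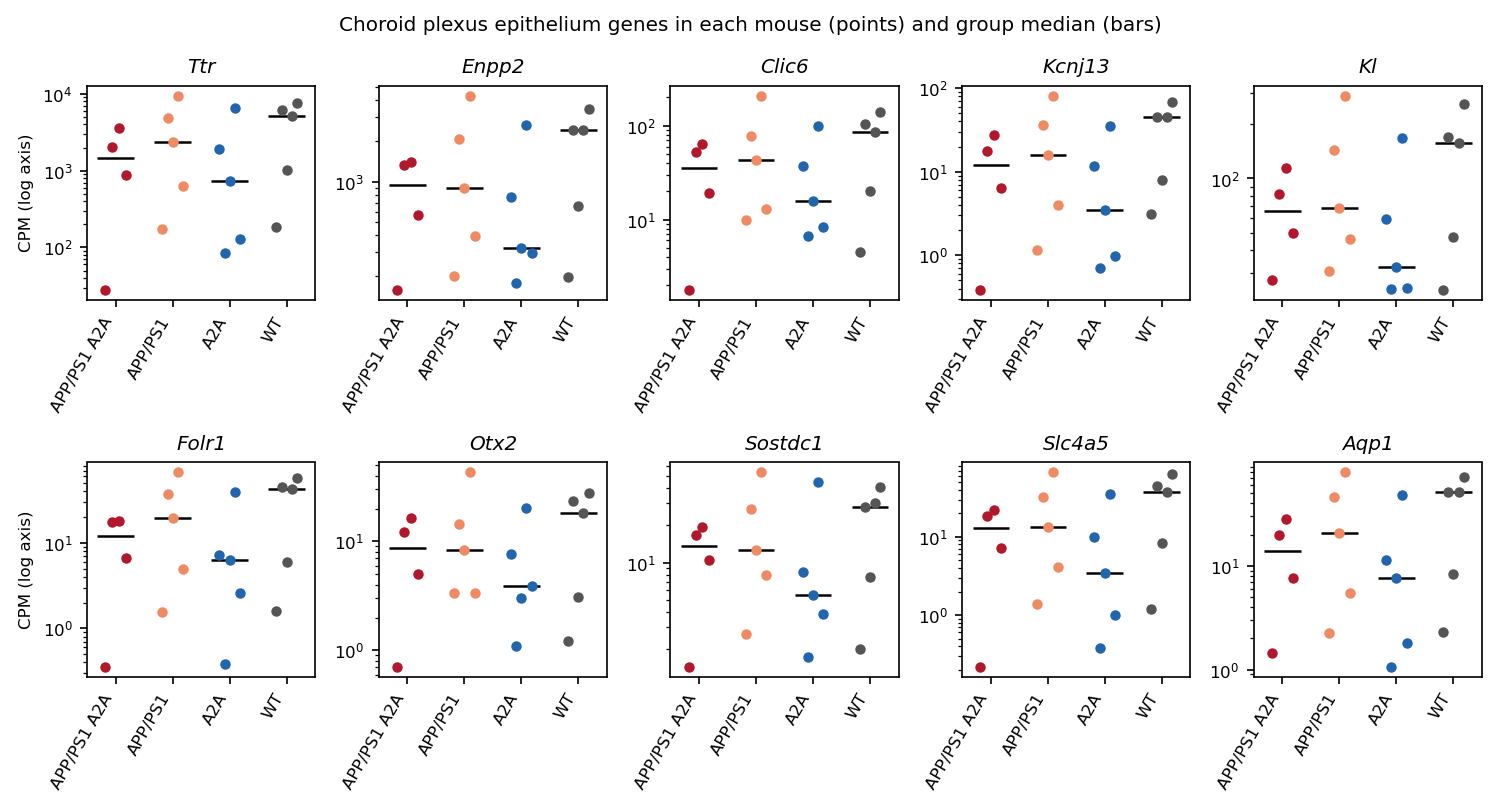
CPM of the 10 genes on log axes, 1 point for each mouse and a bar at the group median, by genotype group. The points of every group spread widely and the groups overlap in each panel, with Ttr between 27.5 and 9443 CPM.

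The transport genes varied in the same way. Slc4a5, an electrogenic sodium bicarbonate cotransporter of this epithelium, had 0.217, 18.7, 22.3 and 7.32 CPM in APP/PS1 A2A mice, 1.39, 32.7, 13.6, 67.2 and 4.18 CPM in APP/PS1 mice, 9.99, 0.378, 3.45, 35.0 and 1.01 CPM in A2A mice, and 1.21, 44.97, 8.37, 37.8 and 64.8 CPM in WT mice. Kcnj13, the inwardly rectifying potassium channel Kir7.1, had 0.379, 17.9, 27.5 and 6.46 CPM in APP/PS1 A2A mice, 1.16, 35.7, 16.05, 81.0 and 4.01 CPM in APP/PS1 mice, 11.8, 0.708, 3.48, 34.7 and 0.984 CPM in A2A mice, and 3.11, 44.6, 7.96, 45.4 and 69.1 CPM in WT mice. Aqp1, the water channel of the apical membrane, ran from 1.06 CPM, in A2A mouse DDBM161, to 79.6 CPM, with a median of 11.4. APP/PS1 mouse DDBM181 was the highest of the 19 for all 10 genes, WT mouse DDBM173 ranked 2 or 3, and APP/PS1 A2A mouse DDBM152 ranked 16 to 19. Folr1, the folate receptor that carries folate into the cerebrospinal fluid, ran from 0.352 to 67.2 CPM with a median of 7.20. Clic6, of the chloride intracellular channel family, ran from 1.76 to 209 CPM with a median of 37.7. For Folr1 and Clic6 the lowest mouse was DDBM152 and the highest DDBM181, as for Ttr.

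Among the secreted proteins and the regulators, Enpp2, which encodes autotaxin, the enzyme that makes lysophosphatidic acid, had 157, 1322, 1407 and 565 CPM in APP/PS1 A2A mice, 202, 2057, 898, 4327 and 398 CPM in APP/PS1 mice, 773, 179, 320.5, 2609 and 297 CPM in A2A mice, and 197, 2424, 657, 2417 and 3438 CPM in WT mice. Kl encodes klotho, the co-receptor of FGF23. It had 27.4, 82.1, 114 and 49.6 CPM in APP/PS1 A2A mice, 30.8, 144, 68.1, 288 and 45.9 CPM in APP/PS1 mice, 59.2, 24.4, 32.1, 169 and 24.6 CPM in A2A mice, and 23.8, 171, 47.0, 157 and 259 CPM in WT mice. Kl had the narrowest range of the 10 genes, 12.1-fold, and its lower end was flat: the 5 mice lowest in Ttr, DDBM152, DDBM161, DDBM166, DDBM176 and DDBM168, had 27.5 to 183 CPM of Ttr and 23.8 to 30.8 CPM of Kl. Enpp2 had a similar but less marked floor, never below 157 CPM and with a range of 27.6-fold. From which cells the RNA at these floors came was not tested. Sostdc1, a secreted inhibitor of BMP and Wnt signalling, ran from 1.44 to 53.6 CPM with a median of 10.4. Otx2, the homeodomain transcription factor needed to form the choroid plexus, ran from 0.705 to 43.1 CPM with a median of 7.71, and its lowest and highest mice were again DDBM152 and DDBM181.

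Levels of different genes were compared per kilobase of transcript, as median CPM per kb over the 19 mice. Ttr stood first at 1584 CPM per kb and Enpp2 second at 290.3, followed by Clic6 at 18.2, Kcnj13 at 15.4, Kl at 10.8, Folr1 at 9.64, Otx2 at 7.46, Sostdc1 at 5.84, Slc4a5 at 4.56 and Aqp1 at 4.32. From Clic6 to Aqp1 the medians lay within a narrower span than the range of any of these 8 genes between mice. The genes were measured in the same mice and varied together, so this range cannot decide whether neighbours in the order differed. Differences in level between genes within mice were not tested.

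The spread between mice of 1 genotype was measured as the SD of log2 CPM pooled within groups, and is a description. It was 2.58 for Ttr, 2.499 for Slc4a5, 2.34 for Folr1, 2.33 for Kcnj13, 2.09 for Aqp1, 1.96 for Clic6, 1.77 for Otx2, 1.72 for Sostdc1, 1.64 for Enpp2 and 1.24 for Kl. The median gene had an SD of 0.218, and 95% of the 18529 genes tested lay below 0.807. Ttr was exceeded by 4 genes, Slc4a5 by 5 and Folr1 by 8, while Kl, the least variable of the 10, was exceeded by 309. With a prior count of 0.5 in place of 2, which widens the spread of weakly expressed genes, 9 genes exceeded Ttr, 11 Slc4a5, 26 Folr1 and 482 Kl.

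The comparison of APP/PS1 with WT asked for the effect of the amyloid transgenes. edgeR called 0 of the 10 genes (0.054% of all genes tested), and 0 passed an unadjusted p under 0.05 (2.26% of all genes). All 10 fitted log2 fold changes were below 0, with a median of -0.21, from -0.40 for Slc4a5 to -0.01 for Clic6, where the median of all genes was 0.004 and 48.4% of them were below 0. For Ttr the value was -0.21 (SE 1.21, 95% interval -2.74 to 2.32, edgeR adjusted p = 0.9998). The median over the 10 genes was -1.01 without APP/PS1 mouse DDBM181 and 0.15 without WT mouse DDBM173. Groups that do not overlap were found for 0 of the 10 genes and for 0.421% of all genes.

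The comparison of A2A with WT asked for the effect of the receptor alone, and gave the lowest fitted values. Kcnj13 stood at -1.73 (SE 1.14, 95% interval -4.12 to 0.66), Slc4a5 at -1.67 (SE 1.16, -4.10 to 0.77), Folr1 at -1.47 (SE 1.097, -3.77 to 0.83) and Ttr at -1.10 (SE 1.22, -3.66 to 1.46), on the log2 scale. edgeR called 0 of the 10 genes (0% of all genes), and 0 passed an unadjusted p under 0.05 (3.44% of all genes), Kl having the smallest (edgeR adjusted p = 0.964). All 10 values were below 0, with a median of -1.11, beside 0.001 for all genes, of which 49.7% were below 0. The 10 genes share their variation between mice, so their common sign is not 10 separate observations. Without A2A mouse DDBM164, the highest of its group, the median was -2.36, and without WT mouse DDBM173 it was -0.75, with 0 genes called in either. The groups overlapped for all 10 genes, as did those of all but 1.12% of genes.

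The comparison of APP/PS1 A2A with A2A asked for the effect of the amyloid transgenes where the receptor was raised. The 10 values ran from -0.21 for Ttr (SE 1.28, 95% interval -2.90 to 2.48, edgeR adjusted p = 0.992) to 0.35 for Kcnj13, 7 above and 3 below 0, with a median of 0.05 beside 0.003 for all genes. edgeR called 0 of them (0.0648% of all genes), and 0 passed an unadjusted p under 0.05 (7.7% of all genes). The median was 1.25 without A2A mouse DDBM164 and -0.36 without APP/PS1 A2A mouse DDBM154. Groups without overlap were seen for 0 of the 10 genes and 2.82% of all genes.

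The comparison of APP/PS1 A2A with APP/PS1 asked for the effect of the receptor in amyloid mice. All 10 values were below 0, with a median of -1.0002, from -1.29 for Folr1 (SE 1.17, 95% interval -3.74 to 1.16) to -0.75 for Kl (SE 0.75, -2.32 to 0.81), while 52.3% of all genes were below 0. edgeR called 0 of the 10 (0% of all genes), and 0 passed an unadjusted p under 0.05 (2.87% of all genes), Folr1 having the smallest (edgeR adjusted p = 0.9999). The median was -0.08 without APP/PS1 mouse DDBM181 and -1.47 without APP/PS1 A2A mouse DDBM154. Groups without overlap were seen for 0 of the 10 genes and 0.712% of all genes. This comparison and those above share mice, so their values stand side by side and not as separate evidence.

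The difference between the effect of APP/PS1 in A2A mice and its effect without the receptor was 0.0003 for Ttr (SE 1.76, 95% interval -3.69 to 3.69) and at most 0.70 for any of the 10 genes, that of Slc4a5 (SE 1.64). edgeR called 0 of the 10 genes (0% of all genes), and 0 passed an unadjusted p under 0.05 (3.8% of all genes). DESeq2 and limma-voom also called 0 of the 10 genes in all 5 comparisons. These values do not show that the genotypes are alike, since the 95% interval of Ttr reached -3.66 in A2A versus WT and 2.32 in APP/PS1 versus WT.

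**Figure D2:**
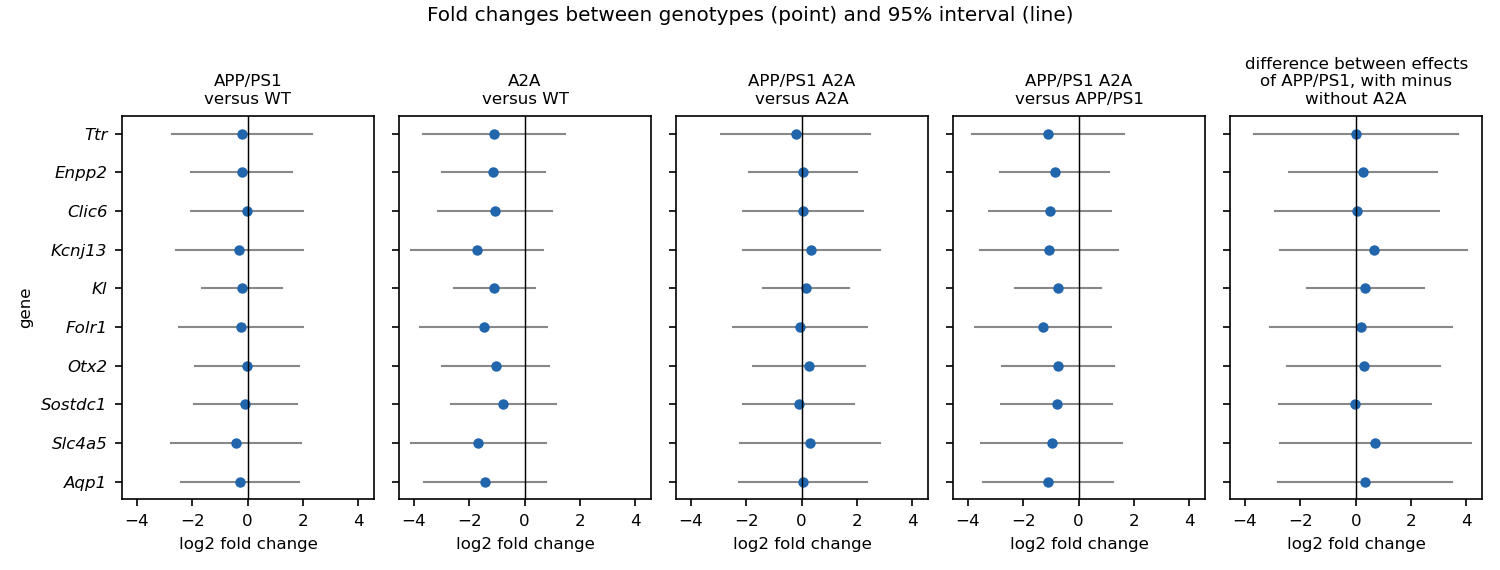
Fitted log2 fold changes of the 10 genes (points) with their 95% intervals (lines) in the 4 comparisons between genotypes and in the difference between the effects of APP/PS1. Every interval crosses 0, including those of Kcnj13 (-1.73) and Slc4a5 (-1.67) in A2A versus WT.

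Over mice the 10 genes followed each other closely. All 45 pairs had a Pearson r between 0.921 and 0.992 on log2 CPM (median 0.969, n = 19 mice) and a Spearman rho between 0.925 and 0.995, each with an adjusted permutation p of 1e-05, the smallest that 100000 permutations can give. Among the 14 mice above the widest gap in Ttr, a choice made after seeing the data, r was 0.948 to 0.995 and rho 0.921 to 0.991, with adjusted permutation p-values of at most 3e-05, while the 5 mice below it were too few for a value. Within genotypes, on deviations from the group means, r over the 19 mice was 0.917 to 0.996. On log2 CPM itself, without the 2 mice farthest from the median of the first gene of a pair, r was 0.896 to 0.991. Ttr and Slc4a5 had the highest r, 0.992, and their ratio varied 2.08-fold over the 19 mice although Ttr varied 343-fold and Slc4a5 310.1-fold. Ttr and Kl had the lowest, 0.921, with a ratio that varied 38.7-fold. By the SD of the log2 ratio, Enpp2 to Sostdc1 was the steadiest of the 45 pairs at 0.297, next to 0.308 for Ttr to Slc4a5, while Ttr to Kl had an SD of 1.46.

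How steeply each gene followed Ttr was measured as a slope, the log2 change of the gene per unit of log2 change in Ttr within genotypes, so that a slope of 1 means a change in proportion. All 9 genes other than Ttr had a positive slope that passed the test (3.7% of all genes did, and 1.11% had a negative slope that passed). Slc4a5 had a slope of 0.98 (SE 0.024, edgeR adjusted p = 7.88e-15), Kcnj13 0.93 (SE 0.032), Folr1 0.90 (SE 0.049), Aqp1 0.82 (SE 0.040), Clic6 0.74 (SE 0.043), Sostdc1 0.66 (SE 0.042), Otx2 0.65 (SE 0.060), Enpp2 0.60 (SE 0.048) and Kl 0.44 (SE 0.047, edgeR adjusted p = 6.93e-06). Slc4a5, Kcnj13, Folr1 and Aqp1 thus stood at the steep end, with 95% intervals of 0.93 to 1.04 for Slc4a5 and 0.863 to 0.996 for Kcnj13. Clic6 came next, with an interval of 0.65 to 0.83 that overlapped that of Sostdc1 (0.58 to 0.75). The secreted proteins, Otx2 and Kl stood lower, with intervals of 0.50 to 0.70 for Enpp2 and 0.34 to 0.54 for Kl. Differences between these slopes were not tested. Each slope is a single line over the whole range of Ttr, although Kl was flat in the 5 mice lowest in Ttr. Above the widest gap, from mouse DDBM182 to mouse DDBM181, log2 CPM went from 9.30 to 13.2 for Ttr. Between the same mice it went from 5.52 to 8.17 for Kl and from 8.64 to 12.1 for Enpp2. Slopes above the gap were not fitted. Leaving out any 1 mouse kept all 9 calls, with slopes of 0.41 to 0.52 for Kl and 0.972 to 1.003 for Slc4a5.

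**Figure D3:**
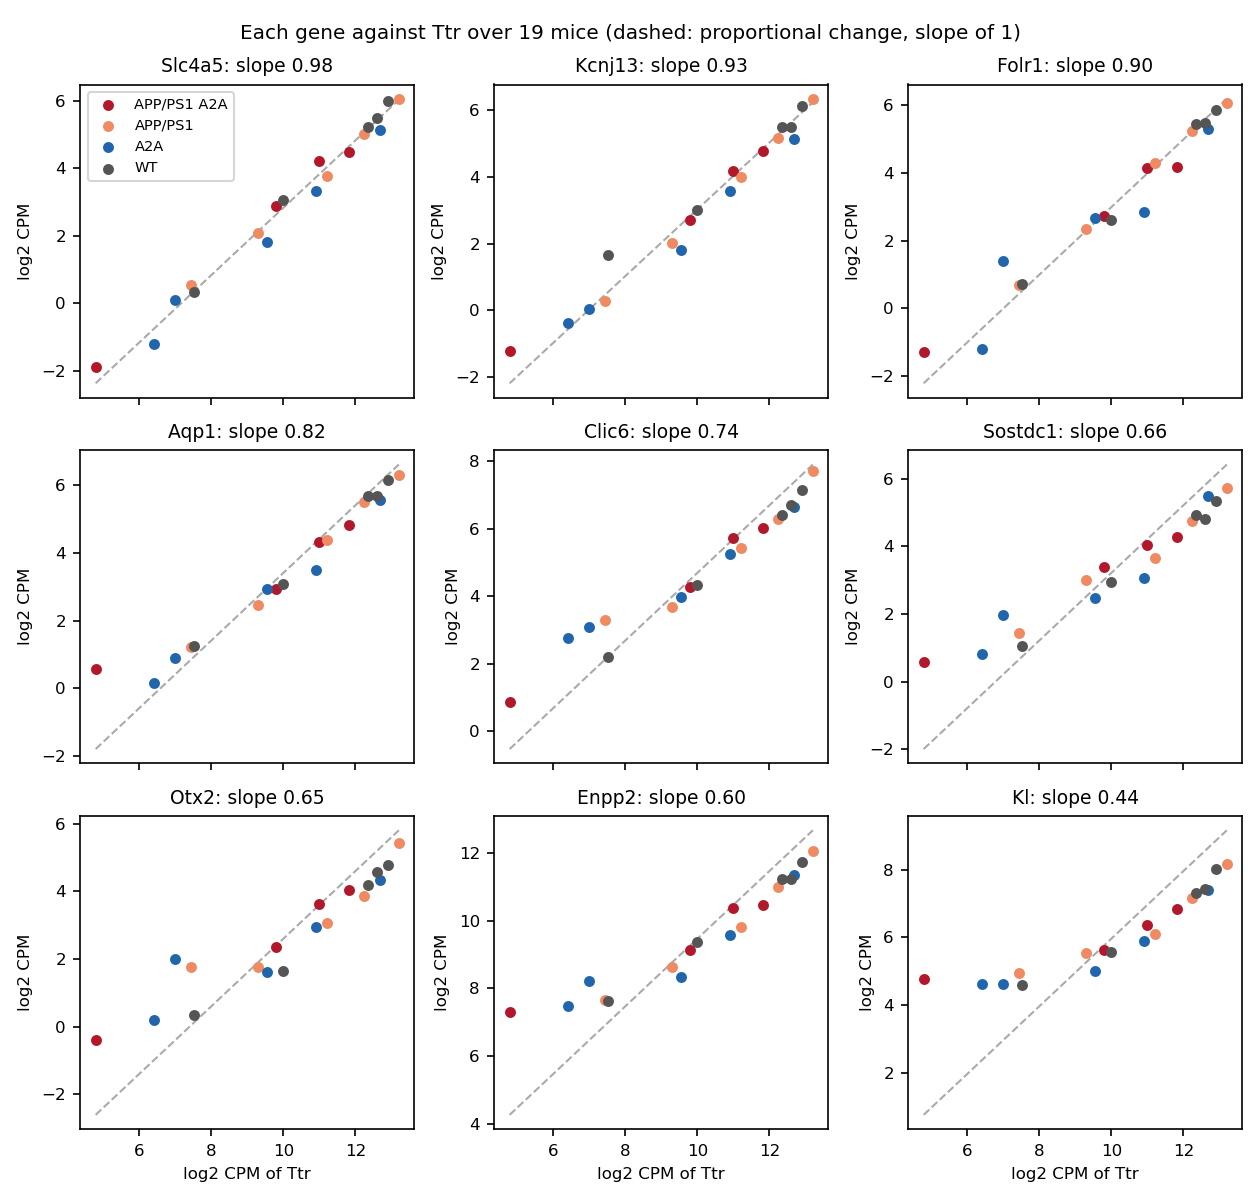
Log2 CPM of each gene (vertical axis) against log2 CPM of Ttr (horizontal axis), 1 point for each of 19 mice, coloured by genotype, with a dashed line for change in proportion to Ttr. Slc4a5 (slope 0.98) runs along the line, while Kl (slope 0.44) levels off near 23.8 to 30.8 CPM in the 5 mice lowest in Ttr.

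The mice at the ends of the Ttr range gave a similar but not identical order. The level in mouse DDBM152, the lowest in Ttr, was 0.292% of that in mouse DDBM181, the highest, for Ttr, 0.322% for Slc4a5, 0.468% for Kcnj13 and 0.524% for Folr1. It was 0.844% for Clic6, 1.63% for Otx2, 1.80% for Aqp1, 2.68% for Sostdc1, 3.62% for Enpp2 and 9.50% for Kl.

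Genotypes were also compared at equal Ttr, that is with the log2 CPM of Ttr as a term, a comparison chosen after the data had been seen. Against WT, edgeR called 0 of the 9 genes for APP/PS1 (0.054% of all genes) and 0 for A2A mice (0%). For APP/PS1 A2A mice it called 0 when set against A2A (0.0756% of all genes) and 0 when set against APP/PS1 (0%), and 0 for the difference between effects (0%). In A2A versus WT, Kcnj13 stood at -0.73 (SE 0.18) and Slc4a5 at -0.54 (SE 0.14), but both had an edgeR adjusted p of 0.999, and DESeq2 gave them adjusted p-values of 0.107 and 0.114. These were 2 of 9 genes at an unadjusted p under 0.05, where 2.81% of all genes passed. With APP/PS1 A2A set against the same A2A mice, Slc4a5 stood at 0.57 (SE 0.14, edgeR adjusted p = 0.151) and Kcnj13 at 0.50 (SE 0.19, edgeR adjusted p = 0.433), 2 of 9 genes at an unadjusted p under 0.05 beside 8.41% of all genes. The number at an unadjusted p under 0.05 was 1 of 9 between APP/PS1 and WT mice (2.42% of all genes), 0 of 9 for APP/PS1 A2A over APP/PS1 (2.89%) and 2 of 9 for the difference between effects (3.97%). Those 2 were Kcnj13 at 0.86 (SE 0.25) and Slc4a5 at 0.76 (SE 0.19), each with an edgeR adjusted p of 0.9999. Because the genes share their variation, these counts do not add up as separate observations.

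Other genes of the choroid plexus followed Ttr as well. The gene lists used here and below were chosen with earlier results of these data known. Their counts are therefore a description and not separate support. Of 33 tested genes of a second list of secreted, junction, surface and transcription factor genes of this epithelium, 31 had a positive slope that passed the test and 0 a negative one, with a median slope of 0.56 beside -0.002 over all genes. Mfrp (slope 1.04, SE 0.034), Tmem72 (1.02, SE 0.032), F5, coagulation factor V (0.92, SE 0.040), and Kcne2, a potassium channel subunit (0.92, SE 0.029), were the 4 with the smallest p. Of 29 transporters, channels and carbonic anhydrases used in making cerebrospinal fluid, many of which other brain cells also use, 14 passed with a positive slope and 0 with a negative one, with a median of 0.10. Slc16a8, a lactate transporter (1.07, SE 0.052), Slco1a5, an organic anion transporter (0.75, SE 0.057), Trpv4, a cation channel (0.56, SE 0.041), and Slc4a2, an anion exchanger (0.27, SE 0.034), led this list.

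The partners of the 10 genes moved little with them. The 19 genes for the handling of retinol and thyroid hormone, the cargo of transthyretin, had a median slope of 0.004. Among them Dio3, the deiodinase that inactivates thyroid hormone, had a slope of 0.30 (SE 0.087, edgeR adjusted p = 0.0574). Of 13 folate genes, 3 passed with small positive slopes: Ggh, a hydrolase of folate polyglutamates (0.12), and the folate carriers Slc46a1 (0.07) and Slc19a1 (0.07). Of 17 Wnt and BMP genes, 3 passed, the Wnt co-receptor gene Lrp5 (0.09) and the ligand genes Bmp6 (0.19) and Bmp7 (0.17). None of the 6 tested receptors and ligands of the klotho system (0 of 6) and none of the 10 genes for receptors and phosphatases of lysophosphatidic acid (0 of 10) passed, with median slopes of 0.03 in both. Of 16 other aquaporins and inward rectifiers, 1 passed with a negative slope, Kcnj2 (-0.13, SE 0.032, edgeR adjusted p = 0.0183), and Aqp4, the water channel of astrocytes, had a slope of -0.04 (edgeR adjusted p = 0.111).

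Markers of other cells that border the ventricles were read beside Ttr. Of 20 genes of ependymal cells, whose motile cilia line the ventricles, 7 passed with a positive slope and 0 with a negative one, with a median of 0.31, among them the cilia genes Spag16 (0.48, SE 0.085), Pifo (0.46, SE 0.082), Cfap126 (0.35, SE 0.076) and Mlf1 (0.35, SE 0.081). All 20 had enough counts to be tested, and their summed level was 97.6 to 276 CPM in APP/PS1 A2A, 124 to 392 CPM in APP/PS1, 102 to 241 CPM in A2A and 111 to 309 CPM in WT mice, so it overlapped between all groups, and its part in the slopes of the 10 genes was not tested. Of 11 genes of border macrophages, 3 passed, the class II antigen presentation genes H2-Aa (0.26, SE 0.054), H2-Ab1 (0.26, SE 0.053) and Cd74 (0.22, SE 0.050). The summed level of these 11 genes was 15.1 to 21.0 CPM in APP/PS1 A2A, 9.35 to 35.7 CPM in APP/PS1, 11.4 to 46.3 CPM in A2A and 16.9 to 38.2 CPM in WT mice, and its part in the slopes was not tested. Of 15 meningeal fibroblast genes and 9 endothelial genes, 0 passed, with median slopes of 0.02 and -0.01.

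Markers of brain regions were read in the same way. Of 8 genes of dentate granule cells, 3 passed with negative slopes, Stxbp6 (-0.12, SE 0.033), Prox1, a transcription factor of these cells (-0.11, SE 0.031), and Tdo2 (-0.14, SE 0.039), with a median of -0.12. The summed level of this list was 404 to 1065 CPM in APP/PS1 A2A, 520.3 to 912 CPM in APP/PS1, 475 to 920.0 CPM in A2A and 474 to 974 CPM in WT mice, and its part in the slopes was not tested. Of 9 striatal genes 1 passed, Ppp1r1b (0.14, SE 0.027), and of 9 CA2 and CA3 genes 1 passed, Coch (0.19, SE 0.039). None passed among 13 genes of thalamus and habenula, 10 of cortex and subiculum, 7 of CA1, 9 of oligodendrocytes, 5 of red blood cells and the 4 transgene genes (0 in each list).

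**Figure D4:**
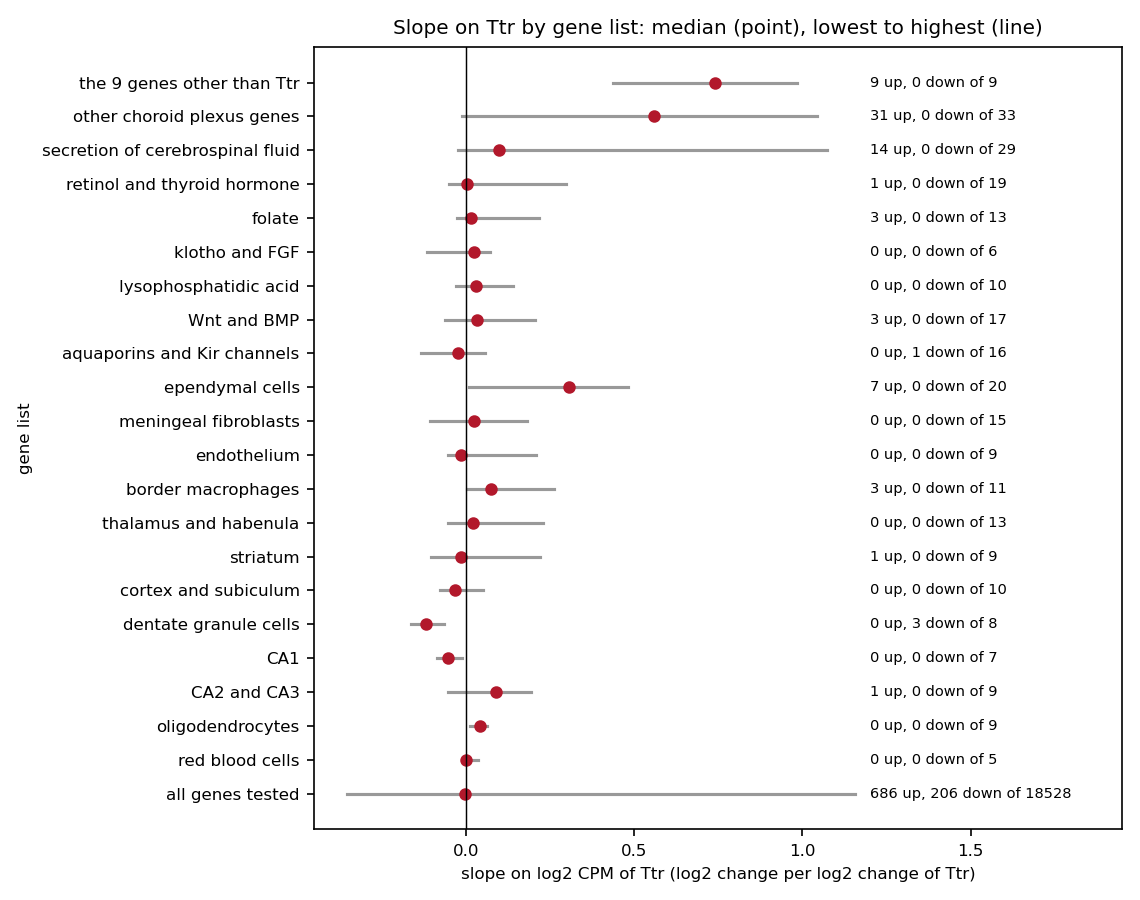
Slope on the log2 CPM of Ttr for each gene list, with the median as a point, the lowest to highest slope as a line and the number of genes that passed the test in each direction at the right. The 9 genes other than Ttr (median 0.74) and the second list of choroid plexus genes (0.56) stand apart from the median of all genes (-0.002), and ependymal genes lie between them (0.31).

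The genes most like the group were found by the Pearson r between their log2 CPM and the mean z-score of the 10 genes over the 19 mice, as a description. The highest was Cldn2, a claudin of the tight junctions of this epithelium (r = 0.993, 0.434 to 73.1 CPM), followed by 1500015O10Rik (0.991), F5 (0.991), Steap1 (0.990), Kcne2 (0.988), Tmem72 (0.987), Trpv4 (0.986), Tmprss11a (0.983), Col8a2 (0.983), Prlr, the prolactin receptor gene (0.982), Slc16a8 (0.981), Rdh5, a retinol dehydrogenase gene (0.981), Prr32 (0.981), E230013L22Rik (0.979) and Mfrp (0.979). Of these 15, 12 were in the 2 lists of choroid plexus and secretion genes, and Tmprss11a, Prr32 and E230013L22Rik were in no list. Because the lists were chosen with earlier results of these data known, this overlap is not separate support. At the other end stood 3000002C10Rik (r = -0.847), Utp14a (-0.811), Cry2, a circadian repressor gene (-0.808), Gm9828 (-0.796) and Slc35f2 (-0.794), whose levels varied at most 1.61-fold over the 19 mice. Their slopes on Ttr ran from -0.06 for 3000002C10Rik to -0.02 for Utp14a.

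Some of the 10 genes overlap other genes in the annotation, and the strand setting of the counting is not given in the sources used here. On the opposite strand, Anapc15 overlaps Folr1 and Gigyf2 overlaps Kcnj13, and both had slopes on Ttr near 0 (-0.007, SE 0.012, and -0.002, SE 0.010). Gm26684, opposite Enpp2, followed Ttr with a slope of 0.42 (SE 0.043, edgeR adjusted p = 4.40e-06), and Otx2os1, opposite Otx2, with a slope of 0.69 (SE 0.070, edgeR adjusted p = 4.46e-06). Their highest levels were 5.19 CPM for Gm26684 and 2.13 CPM for Otx2os1, against 4327 CPM for Enpp2 and 43.1 CPM for Otx2. On the same strand, 2410124H12Rik overlaps Clic6 and Gm49154 overlaps Otx2. Neither was among the genes tested, and an effect of this overlap on the counts of Clic6 and Otx2 was not tested.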

How the data were processed

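Hippocampal RNA was measured in 19 female mice, with 1 library for each mouse. The authors prepared stranded polyA libraries, sequenced single reads, removed ribosomal reads, aligned the rest to mm10 with STAR 2.5.3a and deposited raw counts per gene from HTSeq 0.6.1p1, whose strand setting is not given in the sources used here. The deposited table also holds the log2 fold changes and p-values of the authors' own comparisons, made with DESeq2 1.16.1, and these were not used. An annotation column deposited by the authors with the median length of a gene's transcripts, in bases, was used only to set levels of different genes side by side. All 19 columns of counts were used.

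Totals ran from 21305902 to 53717373 counts, with a median of 35891080, and intervals on single values cover counting error only. Levels are CPM after TMM normalisation. edgeR 4.0.16 in R 4.3.3 fitted 4 group means to the 18529 genes kept by its filter at a minimum count of 10. Contrasts were tested by its quasi-likelihood F-test and adjusted by Benjamini-Hochberg over all of these genes, and a gene was called at an adjusted p under 0.05 with an absolute log2 fold change over 0.32. Covariation with Ttr was the coefficient of the log2 CPM of Ttr (prior count 2) added to the group means, adjusted over 18528 genes. Correlations over mice used two-sided tests with 100000 permutations. The fits were tested on simulated counts.

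The alternatives were DESeq2 1.42.0, limma-voom (limma 3.58.1), DESeq2 size factors, other filters, only the groups compared, no group means, a prior count of 0.5 and leaving out each mouse. Contrasts with Ttr as a term, and correlations among the 14 mice above the widest gap in Ttr, were chosen after seeing the data. The 10 genes and the gene lists were chosen with earlier results of these data known. The genes named in the text are the 10 genes, the 15 genes most and the 5 least alike to their mean z-score, up to 4 genes of smallest p for covariation with Ttr from each list, and the genes that check the labels. The mice carry no shared numbers. The p-values of the fits set an estimate against the spread between these mice, and those of the correlations set r against shuffled pairings of the same mice. Sequence of Ttr and some results of other genes are not reported here.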

Additional observations from a re-analysis of the deposited data

Results flagged for a closer look

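Within groups of 4 or 5 mice, 40 sets of CPM (10 genes in 4 groups) were examined for a mouse far from the others of its group. In 8 of them a mouse stood out. Chance alone gives about 1 in 20 only for normally distributed values. These CPM spread many-fold within groups, so the 8 sets cannot be held against that rate. The 10 genes share their variation, so these are not separate events. Mouse DDBM164 accounts for 7 of the 8, being far above the other A2A mice in Ttr (6559 CPM, with the next mouse at 1931), Folr1 (39.0 and 7.20 CPM), Kl (169 and 59.2 CPM), Aqp1 (47.6 and 11.4 CPM), Enpp2 (2609 and 773 CPM), Sostdc1 (44.9 and 8.39 CPM) and Slc4a5 (35.0 and 9.99 CPM). The other was APP/PS1 mouse DDBM181, with 43.1 CPM of Otx2 where the next mouse of its group had 14.4. On the log2 scale of Ttr, DDBM164 lay between WT mice DDBM169 and DDBM173. On that scale it had 12.7, the next A2A mouse, DDBM160, 10.9, and the lowest A2A mouse, DDBM161, 6.39. Whether DDBM164 stands out on the log2 scale was not tested.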

How the results depend on the processing

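No alternative moved a result across its threshold, and of 725 values under alternatives 698 kept their sign or count. The other 27 changed sign when 1 mouse was left out, 17 of them values of Ttr and 10 of them medians over the 10 genes, none of them called. Leaving out a mouse gave Ttr -1.01 to 0.15 in APP/PS1 versus WT, -0.94 to 1.18 in APP/PS1 A2A versus A2A, and -0.72 to 1.40 in the difference between effects, while in A2A versus WT it stayed between -2.49 and -0.74 and in APP/PS1 A2A versus APP/PS1 between -1.83 and -0.30. Left out in turn, the mice gave medians over the 10 genes of -1.01 to 0.15, -0.36 to 1.25 and -0.19 to 1.41 in the same 3 comparisons. For both Ttr and the medians, the lowest and highest values came without APP/PS1 mouse DDBM181 and WT mouse DDBM173 in the first of these, and without APP/PS1 A2A mouse DDBM154 and A2A mouse DDBM164 in the second. The number of the 10 genes called was 0 in each comparison, and that of genes covarying with Ttr 9, under every alternative, except that only 8 could be tested with at least 10 counts in every mouse, since Slc4a5 had 8 counts in 1 mouse. Under limma-voom the medians over the 10 genes were -0.36 for APP/PS1 over WT (-0.21 under edgeR), -1.46 for A2A over WT (-1.11), 0.47 for APP/PS1 A2A over A2A (0.05), -0.68 for APP/PS1 A2A over APP/PS1 (-1.0002) and 0.68 for the difference between effects (0.28). With a prior count of 0.5 the SD of Ttr between mice was again 2.58, but 9 genes exceeded it in place of 4. No paired analysis was possible because the mouse names share no numbers between groups. Depth limits the low end, where Slc4a5, Folr1 and Kcnj13 rest on under 20 counts in APP/PS1 A2A mouse DDBM152. The same holds for Slc4a5 and Folr1 in A2A mouse DDBM161, at 16 counts each.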
